A study of Mus musculus with 9 samples.

Results

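The 10 genes described here encode RNA-binding proteins that set which exons are spliced into messenger RNA in neurons or in epithelia. They are Srrm3, Srrm4, Elavl2, Elavl3, Elavl4, Nova1, Nova2 and Celf3, the 8 neuronal members, and Esrp1 and Esrp2, the 2 epithelial ones. The list of members was drawn up with earlier results of these data known. Their rows were taken by gene symbol, as 10 of the 57010 genes in each of the authors' deposited tables. Each symbol matched 1 row per table. RNA was sequenced from 9 mouse libraries in 3 groups of 3. By the labels, the GSK group was small cell lung cancer (SCLC) organoids given an agent called GSK, the SCLC group was SCLC organoids with no agent named, and the Normal group was organoids of normal lung. Organoids are cultures in which cells grow into small bodies that resemble a tissue. The libraries labelled GSK also carried RNA of immune, endothelial and mesenchymal genes, given with the marker values, so it is unsure that they came from the same kind of sample as the SCLC libraries. The sources used here do not give the genotype, strain, sex or age of the animals, the origin of the tumour cells, or the identity, dose and duration of GSK. Nothing there says that libraries of a group came from separate cultures, so the p-values measure the spread between these libraries, which may be technical.

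SRRM3 and SRRM4 activate microexons, very short exons that neurons and some endocrine cells include and most other cells skip. The neuronal ELAVL proteins (also called Hu proteins) bind AU-rich and U-rich RNA and act on splicing and on mRNA stability, the NOVA proteins bind clusters of short pyrimidine-flanked motifs beside neuronal exons, and CELF3 belongs to a family that binds GU-rich RNA. ESRP1 and ESRP2 maintain the epithelial forms of transcripts such as those of Fgfr2 and Cd44, and are lost when epithelial cells take on mesenchymal traits. SCLC is a neuroendocrine tumour that expresses many neuronal genes. REST, a repressor of neuronal genes outside the nervous system, holds Srrm4 down in non-neuronal cells, and SRRM4 in turn alters the splicing of Rest.

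The promoter windows of RefSeq (build GRCm38.p6) ran from 250 bases before to 50 bases after each listed start. They covered the 8 neuronal members with 22 windows, and none covered Esrp1 or Esrp2. One window from each of 3 families that were higher in SCLC is given, for genes with a single listed start, 5′ to 3′ on the strand of the gene, with the hexamers CAGCTG and CACCTG in capitals. These hexamers are E-boxes, the sites of basic helix-loop-helix factors and, for the second, of ZEB and SNAIL repressors.
Srrm4 (chr5:116591768-116592067, minus strand): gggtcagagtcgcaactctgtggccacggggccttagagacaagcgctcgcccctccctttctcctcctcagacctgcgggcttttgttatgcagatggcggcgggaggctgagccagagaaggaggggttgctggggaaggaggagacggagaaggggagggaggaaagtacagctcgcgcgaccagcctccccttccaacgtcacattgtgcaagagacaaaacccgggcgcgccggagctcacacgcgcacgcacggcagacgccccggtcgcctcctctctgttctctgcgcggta
Elavl3 (chr9:22051974-22052273, minus strand): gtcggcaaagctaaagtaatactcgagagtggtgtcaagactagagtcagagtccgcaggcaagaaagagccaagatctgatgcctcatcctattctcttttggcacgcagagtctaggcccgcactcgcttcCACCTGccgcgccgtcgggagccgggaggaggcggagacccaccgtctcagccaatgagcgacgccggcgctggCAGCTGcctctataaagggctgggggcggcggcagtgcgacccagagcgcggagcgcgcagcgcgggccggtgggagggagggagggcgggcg
Nova1 (chr12:46818718-46819017, minus strand): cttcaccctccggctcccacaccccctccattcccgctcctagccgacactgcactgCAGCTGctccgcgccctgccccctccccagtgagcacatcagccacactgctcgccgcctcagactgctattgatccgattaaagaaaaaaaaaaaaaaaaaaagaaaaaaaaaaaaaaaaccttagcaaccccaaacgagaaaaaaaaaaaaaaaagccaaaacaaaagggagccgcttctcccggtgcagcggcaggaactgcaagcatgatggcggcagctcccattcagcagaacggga
The window of Elavl3 held CACCTG from base -117 and CAGCTG from base -43 relative to the start, that of Nova1 held CAGCTG from base -193, and that of Srrm4 held neither. CAGCTG, which reads the same on both strands, occurred in windows of Celf3, Elavl2, Elavl3, Elavl4 and Nova1, 10 of the 22 windows, against 16.3% of all 32851 windows. CACCTG, searched on both strands, occurred in windows of Celf3, Elavl3 and Elavl4, 6 of the 22, against 20.2% of all windows. Several windows of Celf3, Elavl2 and Elavl4 overlap each other, so the counts are not of separate sequences. Of 2 heptamers from the consensus of the REST site, searched on both strands, TCAGCAC was in 0 of the 22 windows and in 5.12% of all windows, and GGACAGC was in 0 of the 22 and in 6.56% of all. These matches describe letters in the windows only.

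The values come from the authors' deposited tables of SCLC against Normal and of GSK against its control, which matched the SCLC group: over 13634 genes, the implied control mean and the implied SCLC mean of the other table differed by a log2 ratio of 0.11 with an SD of 0.0084. No column holds a single library, so each level is a mean of normalized counts per library of a group, solved from the mean over both groups and the fold change, and the spread between libraries enters only through the authors' standard error. Fold changes are log2 ± that standard error, intervals are 95% normal intervals, and a gene was called when the authors' adjusted p was under 0.05. The summed normalized counts per library, from the authors' deposited tables, were 31.9 M in GSK and 45.3 M in SCLC in one, and 42.0 M in SCLC and 44.7 M in Normal in the other. The libraries labelled GSK carried RNA of immune and endothelial markers that was near 0 in the SCLC libraries. All 9 immune cell markers and all 6 endothelial markers were higher in GSK than in SCLC in the authors' deposited table, as were 9 of 10 mesenchymal genes. Each of these counts was the same under every scaling tried. Over all genes tested there, 21.6% were higher in GSK under the authors' scaling. The immune markers summed to 24673 normalized counts in GSK and 82.0 in SCLC, the endothelial markers to 16429 in GSK and 56.8 in SCLC, and the mesenchymal genes to 56643 in GSK and 5491 in SCLC, from the authors' deposited table. Of the defining markers, Ptprc, Adgre1, Itgam, Cd3e, Ms4a1 and Nkg7 of immune cells and Cdh5, Tie1 and Emcn of endothelium lay under a mean of 1 in SCLC in the authors' deposited table. Sums from the authors' other deposited table were 76.0 in SCLC and 1863 in Normal for the immune markers, 53.2 in SCLC and 131 in Normal for the endothelial markers, and 5099 in SCLC and 28304 in Normal for the mesenchymal genes. In SCLC 9 of 10 mesenchymal genes, 5 of 6 tested immune markers and 4 of 6 endothelial markers fell in the authors' deposited table. Cdh2, the remaining gene of the mesenchymal list, rose. Over all genes tested there, 25.1% fell and 25.3% rose. In bulk RNA, fewer cells of a type and less RNA per cell cannot be told apart, and the part of these other cells in the results below was not tested.

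**Figure D1:**
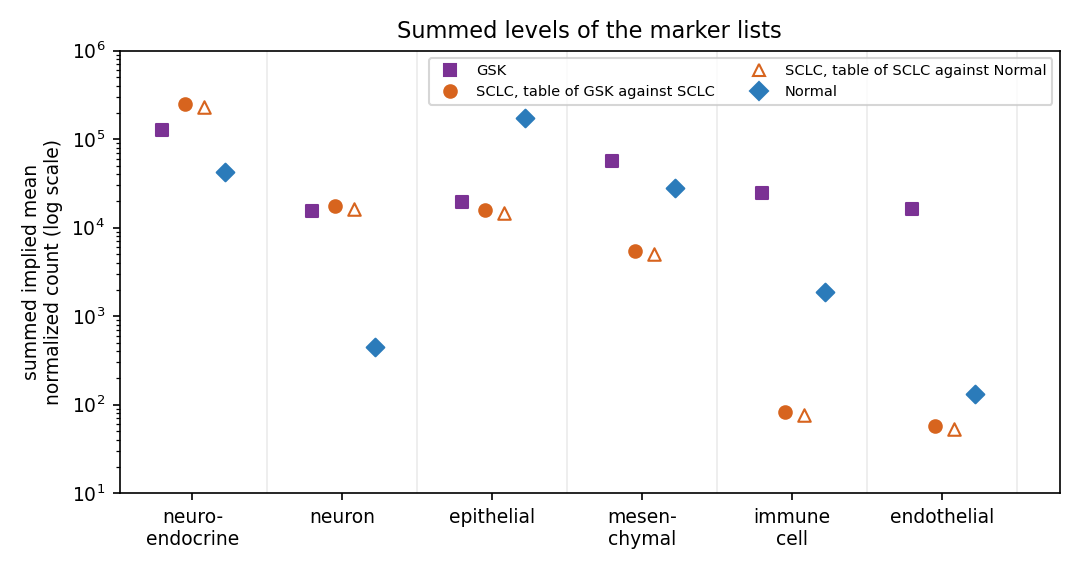
Summed implied mean normalized counts (log scale) of 6 marker lists in GSK, SCLC and Normal, with SCLC drawn once for each authors' deposited table. The immune markers stood at 24673 in GSK against 82.0 in SCLC, while the neuroendocrine markers stood at 126436 in GSK against 247063 in SCLC.

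The first question was how tumour organoids differ from organoids of normal lung. Of the 10 members 9 were called, against 50.4% of the 24719 genes tested in the authors' deposited table. All 8 neuronal members rose in SCLC, by log2 fold changes from 2.73 to 11.66, where 25.3% of genes rose in the authors' deposited table. Esrp2 fell and Esrp1 had a lower mean with no p-value, where 25.1% of genes fell in the authors' deposited table. Among the 8 neuronal members the median was 6.58, against 0.10 over all genes tested and 0.18 over abundant genes (mean of 100 or more) in the authors' deposited table.

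The SRRM pair differed in starting level. Srrm3, the microexon activator also known from pancreatic endocrine cells, had a mean of 3544 in SCLC and 2.24 in Normal, from the authors' deposited table. It rose by 10.63 ± 0.97 (interval 8.72 to 12.53, adjusted p = 1.92e-26), the 91st largest of the 6252 rises in the authors' deposited table. Srrm4, the brain microexon activator, had a mean of 93.9 in SCLC and 14.2 in Normal, from the authors' deposited table. It rose by 2.73 ± 0.87 (adjusted p = 0.00422), the smallest rise of the 8 neuronal members in the authors' deposited table, and its interval of 1.03 to 4.43 lay below that of Srrm3. Per kilobase of exon, Srrm3 made up 98.1% of the pair's level in SCLC and 17.6% in Normal, from the authors' deposited table. Thus nearly all of the pair's RNA in SCLC came from Srrm3, while in Normal the pair summed to only 1.98 normalized counts per kilobase.

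All 3 neuronal ELAVL genes rose. Elavl3, which encodes HuC, had a mean of 12054 in SCLC and 3.73 in Normal, from the authors' deposited table. Its rise of 11.66 ± 0.71 (adjusted p = 9.62e-58) ranked 56th of all rises by fitted value in the authors' deposited table. Elavl4, which encodes HuD, had a mean of 741 in SCLC and lay under a mean of 1 in Normal, which makes it at least 741-fold higher in SCLC (adjusted p = 8.05e-17, from the authors' deposited table). Elavl2, which encodes HuB, had a mean of 170.4 in SCLC and 3.71 in Normal and rose by 5.52 ± 0.82 (adjusted p = 1.25e-10, from the authors' deposited table). Per kilobase, Elavl3 held 91.7% of the family's level in SCLC, Elavl4 held 7.21% and Elavl2 held 1.07%, from the authors' deposited table. Elavl1, the ubiquitous paralog HuR, had a mean of 7068 in SCLC and 1914 in Normal and rose by 1.88 ± 0.23 (adjusted p = 8.51e-16, from the authors' deposited table).

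Nova1 and Nova2 had low but measurable means in Normal. Nova1, first known as a neuronal antigen of patients with paraneoplastic movement disorders, had a mean of 3164 in SCLC and 17.9 in Normal, from the authors' deposited table. Its rise of 7.47 ± 0.41 had the smallest standard error of the 10 members and the lowest adjusted p (5.09e-73) in the authors' deposited table. Nova2, the paralog of cortical neurons, had a mean of 2726 in SCLC and 53.1 in Normal and rose by 5.68 ± 0.47 (adjusted p = 2.15e-32, from the authors' deposited table). Nova1 held 52.6% of the pair's level per kilobase in SCLC and 24.4% in Normal, from the authors' deposited table. Celf3 had a mean of 2488 in SCLC and 49.0 in Normal and rose by 5.66 ± 0.42 (adjusted p = 1.14e-40, from the authors' deposited table).

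The epithelial members were high in Normal and lower in SCLC, where both were still measurable. Esrp2 had a mean of 408 in SCLC and 8733 in Normal and fell by 4.42 ± 0.88 on the log2 scale (interval -6.14 to -2.70, adjusted p = 2.02e-06, from the authors' deposited table). Esrp1 had a mean of 387 in SCLC and 4162 in Normal, a log2 fold change of -3.43 ± 1.26, from the authors' deposited table. No p-value is given for Esrp1 there, which in a DESeq2 table would mark an outlying count in a library, as for 72 of the 12959 abundant genes (0.556%) in the authors' deposited table. No library can be named from the table, and Esrp1 is given as a value with no call. The coefficient of variation between libraries implied by the standard errors was 107% for Esrp1, 74.4% for Esrp2 and 70.8% for Srrm4, against a median of 24.8% over abundant genes in the authors' deposited table. For Nova1, Celf3 and Nova2 it was 30.2%, 33.7% and 38.5% from the authors' deposited table, and it was not computed for Srrm3 and the ELAVL genes, whose Normal means lay under 10. Of the 6 members with a value, the epithelial ones and Srrm4 thus had the widest spread between libraries.

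**Figure D2:**
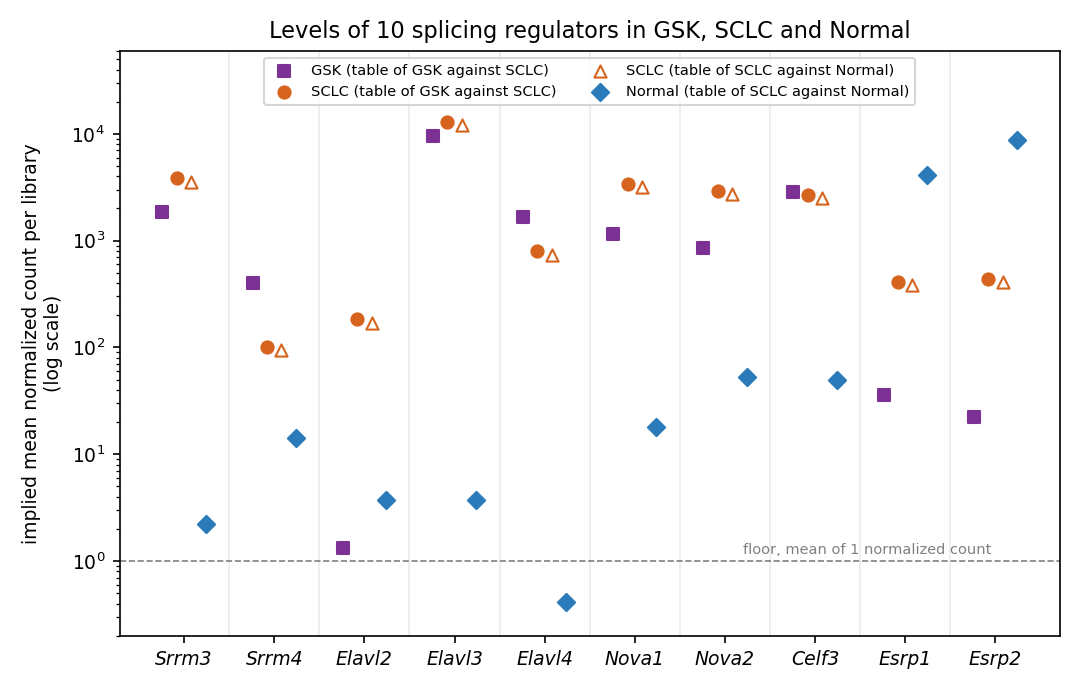
Implied mean normalized count per library (log scale) of the 10 members in GSK, SCLC and Normal, with SCLC drawn once for each authors' deposited table. The 8 neuronal members lie at or below 53.1 in Normal and from 93.9 to 12961 in SCLC, while the means of Esrp1 and Esrp2 descend over Normal, SCLC and GSK. No p-value is given for Esrp1 in SCLC against Normal.

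**Figure D3:**
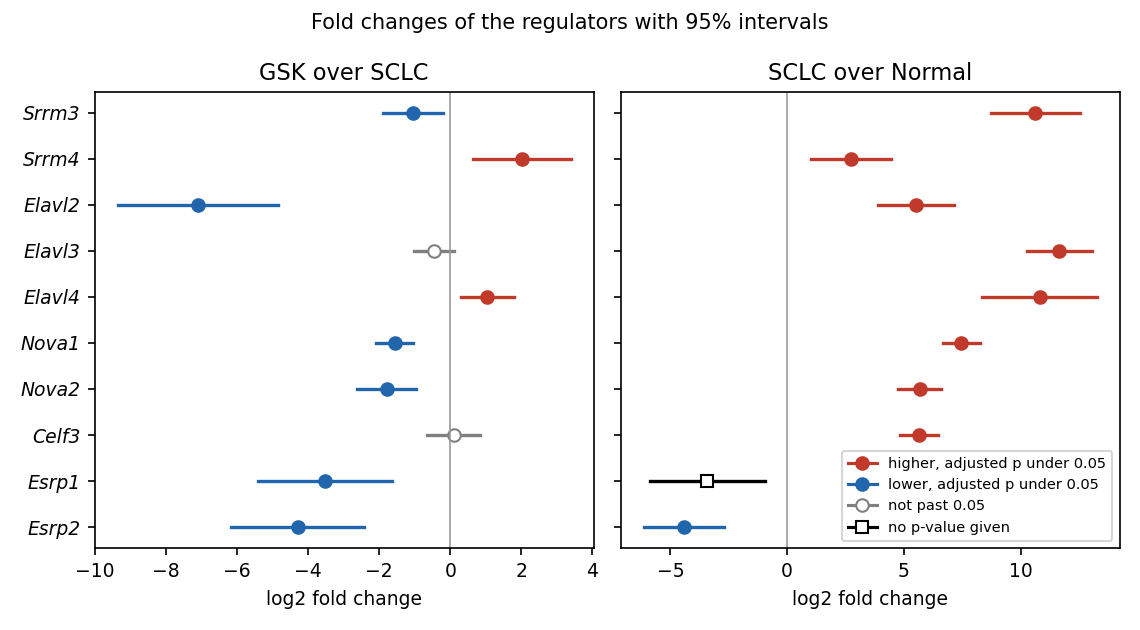
Log2 fold change of each member with its 95% interval, for GSK over SCLC (left) and SCLC over Normal (right), from the authors' deposited tables. Neuronal members all lie right of 0 in SCLC over Normal and spread from -7.11 to 2.02 in GSK over SCLC; the value of Elavl4 over Normal is the fitted one, although its Normal mean lies under 1.

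The second question was how the libraries labelled GSK differ from the SCLC libraries, and here the members split. The agent and the other cell make-up of these libraries (immune markers at 24673 in GSK and 82.0 in SCLC, from the authors' deposited table) cannot be told apart in this comparison. Of the 10 members 8 were called, against 37.1% of the 28376 genes tested in the authors' deposited table. The calls were 6 falls and 2 rises, with 15.5% of all genes falling and 21.6% rising, from the authors' deposited table. Elavl2, Esrp2, Esrp1, Nova2, Nova1 and Srrm3 fell, Srrm4 and Elavl4 rose, and Elavl3 and Celf3 were not called in the authors' deposited table. Both comparisons use the SCLC libraries, so a change in one and a change in the other are not independent. The abundant genes had a median log2 fold change of -0.25 and the summed counts a log2 ratio of -0.51, from the authors' deposited table. The main calls over all genes were 6129 higher and 4404 lower (58.2% higher), against 7242 higher and 3077 lower (70.2%) when centred on abundant genes and 8738 higher and 1970 lower (81.6%) when scaled to summed counts, from the authors' deposited table.

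Elavl2 had the largest change of the members. Its mean was 1.34 in GSK and 184 in SCLC, a log2 fold change of -7.11 ± 1.15 (interval -9.36 to -4.85, adjusted p = 1.01e-08), in the authors' deposited table. By size this was the 10th largest of 4404 falls in the authors' deposited table. The interval spans a level in GSK from 0.152% to 3.48% of that in SCLC, from the authors' deposited table. Elavl4 went the other way, with a mean of 1655 in GSK and 801 in SCLC, a rise of 1.05 ± 0.38 (adjusted p = 0.0177, from the authors' deposited table). Elavl3 had a mean of 9485 in GSK and 12961 in SCLC, a log2 fold change of -0.45 ± 0.29 (interval -1.01 to 0.11, adjusted p = 0.218), in the authors' deposited table. Within the family the share of Elavl4 per kilobase was 18.2% in GSK and 7.21% in SCLC, that of Elavl3 was 81.7% in GSK and 91.7% in SCLC, and that of Elavl2 was 0.00955% in GSK and 1.07% in SCLC, from the authors' deposited tables. The interval of Elavl4, 0.31 to 1.79, overlapped neither that of Elavl3 nor that of Elavl2.

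The SRRM pair also split. Srrm4 had a mean of 405 in GSK and 100.1 in SCLC and rose by 2.02 ± 0.70 (interval 0.64 to 3.39, adjusted p = 0.0137, from the authors' deposited table). Srrm3 had a mean of 1843 in GSK and 3822 in SCLC and fell by 1.05 ± 0.43 on the log2 scale (adjusted p = 0.041, from the authors' deposited table). The call of Srrm3 ended when fold changes were centred on abundant genes (-0.81, adjusted p = 0.135) or scaled to summed counts (-0.55, adjusted p = 0.331), and when all genes with a p-value entered the adjustment (adjusted p = 0.0517), from the authors' deposited table. Srrm4 kept its call under both scalings (2.26 and 2.52, adjusted p = 0.00521 and 0.00151), from the authors' deposited table. Per kilobase Srrm4 made up 14.0% of the pair in GSK and 1.92% in SCLC, from the authors' deposited tables, so Srrm3 remained the more abundant of the pair.

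Both NOVA genes fell, with overlapping intervals. Nova1 had a mean of 1150 in GSK and 3409 in SCLC and fell by 1.57 ± 0.27 on the log2 scale (interval -2.09 to -1.05, adjusted p = 4.71e-08, from the authors' deposited table). Nova2 had a mean of 848 in GSK and 2926 in SCLC and fell by 1.79 ± 0.42 on the log2 scale (interval -2.61 to -0.96, adjusted p = 0.000143, from the authors' deposited table). Scaled to summed counts the values were -1.06 for Nova1 and -1.28 for Nova2, both still called (adjusted p = 0.000354 and 0.00869), from the authors' deposited table. Celf3 had a mean of 2844 in GSK and 2663 in SCLC, a log2 fold change of 0.095 ± 0.38 (interval -0.64 to 0.83, adjusted p = 0.877), in the authors' deposited table.

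Esrp1 and Esrp2 were lower in GSK than in SCLC. Their means in SCLC were already below Normal, although that step had no p-value for Esrp1. Esrp1 had a mean of 35.6 in GSK and 412 in SCLC and fell by 3.53 ± 0.96 on the log2 scale (adjusted p = 0.0012, from the authors' deposited table). Esrp2 had a mean of 22.1 in GSK and 435 in SCLC and fell by 4.30 ± 0.96 on the log2 scale (adjusted p = 4.82e-05, from the authors' deposited table). The fall of Esrp1 was the 187th and that of Esrp2 the 113th largest of 4404 in the authors' deposited table. The implied coefficient of variation was 81.0% for Esrp1 and 79.6% for Esrp2, against 22.4% to 59.1% for the neuronal members other than Elavl2, from the authors' deposited table. The median over abundant genes was 27.1% in the authors' deposited table, so the epithelial members again varied more between libraries than most genes. The 16 epithelial adhesion and keratin genes summed to 19313 normalized counts in GSK and 15923 in SCLC, from the authors' deposited table. Abundant genes weigh most in such a sum, and by gene 2 rose, 2 fell and 12 were not called in GSK.

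**Figure D4:**
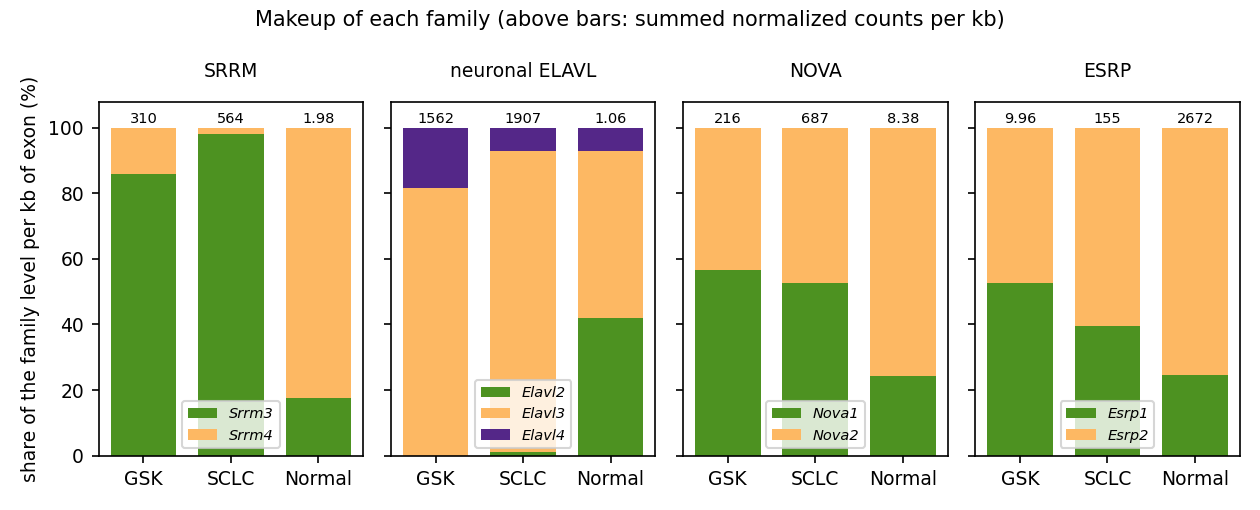
Share of each member in the summed level of its family per kilobase of exon (%), in GSK, SCLC and Normal, with the sum in normalized counts per kilobase above each bar. Srrm4 makes up 14.0% of its pair in GSK and 1.92% in SCLC, and the ESRP sum is 9.96 in GSK, 155 in SCLC and 2672 in Normal. That sum includes Esrp1, which has no p-value in SCLC against Normal.

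**Figure D5:**
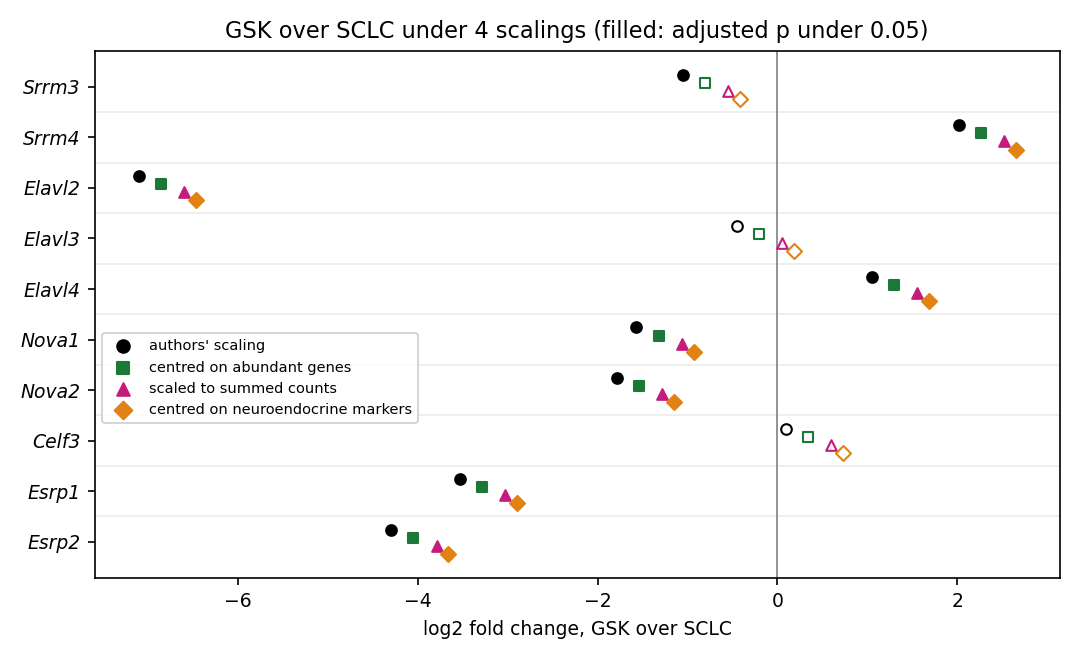
Log2 fold change of GSK over SCLC for each member under 4 scalings, with filled symbols for an adjusted p under 0.05. Srrm3 is called under the authors' scaling only, and Elavl3 changes sign without being called under any of the 4.

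Set on the scale of the SCLC and Normal table, the GSK means put the members in different places between the other groups. The tables were scaled separately, a 1.08-fold offset was removed, and no p-value was computed for GSK against Normal. On that scale the authors' deposited tables gave Elavl2 a mean of 1.24 in GSK and 3.71 in Normal, Esrp1 33.0 in GSK and 4162 in Normal, and Esrp2 20.5 in GSK and 8733 in Normal. Elavl4 at 1534 and Srrm4 at 376 in GSK lay above both SCLC (741 and 93.9) and Normal (0.411 and 14.2), from the authors' deposited tables. Nova1 at 1066, Nova2 at 786, Srrm3 at 1709 and Elavl3 at 8795 in GSK lay between SCLC and Normal, nearer to SCLC on the log scale, from the authors' deposited tables. Celf3 stood at 2637 in GSK, 2488 in SCLC and 49.0 in Normal, from the authors' deposited tables. Summed per kilobase, the 8 neuronal members stood at 2569 in GSK, 3613 in SCLC and 20.4 in Normal, with Elavl3 at 49.7% of the sum in GSK, 48.4% in SCLC and 2.65% in Normal, from the authors' deposited tables.

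A list of other paralogs of the members, which mixes broadly expressed genes with the neuronal Celf4, Celf5 and Celf6, also rose in SCLC for the most part. Apart from these neuronal genes, Elavl1, Celf2 and Srrm1 (0.84) rose in the authors' deposited table, and Celf1 (0.34, adjusted p = 0.104) was not called. For this list and those below, the shares over all genes were 25.3% higher and 25.1% lower in SCLC, and 21.6% higher and 15.5% lower in GSK. Of 8 tested, 6 rose and Srrm2, a constitutive splicing coactivator, fell (-0.62 ± 0.27, adjusted p = 0.0402, from the authors' deposited table), a fall no longer called once scaled to summed counts. The neuronal CELF genes had the largest rises, with Celf6 at 9.53 ± 1.07, Celf4 at 4.36 ± 0.30 and Celf5 at 3.85 ± 0.57, and Celf2 rose by 2.14 ± 0.21, in the authors' deposited table. The list's median was 2.01, against 0.10 for all genes tested in the authors' deposited table. In GSK 0 of the 8 rose and Elavl1 (-0.68 ± 0.25, adjusted p = 0.024), Celf1 (-0.76 ± 0.22) and Celf2 (-0.75 ± 0.21) fell in the authors' deposited table, while with summed counts 1 rose and 0 fell. Celf4, Celf5 and Celf6 had log2 fold changes of 0.078, -0.093 and 0.18 in GSK and, like Celf3, were not called in the authors' deposited table.

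A list of other splicing regulators mixed tissue-restricted genes with broadly expressed ones such as Ptbp1 and Tial1. Of 19 tested, 13 rose and 6 fell in SCLC in the authors' deposited table, with a median of 0.84 against 0.10 for all genes. The neuronal regulators Rbfox3 (9.23 ± 1.28) and Rbfox1 (6.59 ± 0.94) and the muscle regulator Rbm24 (6.66 ± 0.67) had large rises, and Rbfox2 rose by 0.84 ± 0.30, in the authors' deposited table. Ptbp1, which represses neuronal exons and is normally low in neurons, rose by 1.75 ± 0.20 (adjusted p = 7.58e-17), and Ptbp2, its neuronal paralog, rose by 0.66 ± 0.27 (adjusted p = 0.0298, from the authors' deposited table). Centring on abundant genes left 10 rises, without Ptbp2 (0.48, adjusted p = 0.128), Rbfox2 (0.66, adjusted p = 0.0559) and Tial1 (0.40, adjusted p = 0.0792), from the authors' deposited table. Mbnl3 (-4.95 ± 0.35), Rbm47 (-4.36 ± 1.59) and Qki (-3.68 ± 0.34) had the largest falls in the authors' deposited table. In GSK 5 of 20 rose and 3 fell, near the shares over all genes, 21.6% and 15.5%. The rises were Mbnl3 (2.18 ± 0.60), Ptbp3 (1.33 ± 0.37), Mbnl1 (1.09 ± 0.35), Qki (mean of 3811 in GSK and 1908 in SCLC) and Ptbp2 (0.71 ± 0.28), in the authors' deposited table. Rbm38 (-1.46 ± 0.30), Rbm11 (-1.37 ± 0.51) and Ptbp1 (-0.77 ± 0.21, adjusted p = 0.00141) fell in GSK in the authors' deposited table, and 8 rose and 1 fell when scaled to summed counts. Rbfox1, Rbfox2 and Rbfox3 had 0.48, -0.50 and 0.48 in GSK and were not called in the authors' deposited table.

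Rest, the repressor of neuronal genes, moved opposite to the neuronal members in SCLC. It had a mean of 118 in SCLC and 2720.1 in Normal and fell by 4.52 ± 0.77 on the log2 scale (adjusted p = 2.26e-08, from the authors' deposited table). In GSK its mean was 764 against 126 in SCLC, a rise of 2.60 ± 0.85 (adjusted p = 0.00795, from the authors' deposited table), in the same libraries in which the mesenchymal gene Vim had 19863 in GSK and 212 in SCLC. Of 11 genes for REST and its corepressors, 6 rose and Rest alone fell in SCLC in the authors' deposited table, with a median of 0.59 against 0.10 for all genes, and centring on abundant genes left 3 rises. Rcor2, a corepressor of neural progenitors, rose most (6.57 ± 0.49) in the authors' deposited table. In GSK only Rest rose and Kdm1a, a histone demethylase, fell (-0.87 ± 0.26) in the authors' deposited table, while with summed counts 3 rose and 0 fell. Of 15 tested neuronal genes known as REST targets, 14 rose in SCLC with a median of 10.07 (9.86 with genes under a mean of 1 in Normal set at their bound), against 0.10 for all genes, and in GSK 0 rose and 8 fell with a median of -0.63, against 0.24 for all genes, in the authors' deposited tables. Kcnc1 (-2.59 ± 0.25), Stmn3 (-1.79 ± 0.35), Crmp1 (-1.61 ± 0.33) and Unc13a (-1.34 ± 0.29) had the largest falls in GSK in the authors' deposited table, whereas Chga had 0.056 ± 0.33; scaled to summed counts 1 rose and 5 fell.

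The neuroendocrine markers give the setting of the neuronal members. In SCLC 11 of 12 rose and Nkx2-1, a lung lineage factor, fell (-0.91 ± 0.32) in the authors' deposited table; Insm1, a neuroendocrine transcription factor, was at least 62133-fold higher. In GSK Neurod1 (3.38 ± 0.89) and Calca (1.15 ± 0.40) rose and 6 fell, among them Insm1 (-1.95 ± 0.27), in the authors' deposited table, and 4 fell when scaled to summed counts. The median of these 12 in GSK was -0.64, and with fold changes centred on it Nova1 was at -0.93 (adjusted p = 0.00191), Nova2 at -1.15 (adjusted p = 0.0192), Elavl2 at -6.47, Srrm4 at 2.65 and Elavl4 at 1.68, all still called from the authors' deposited table. Srrm3 was not called on that scale (-0.42, adjusted p = 0.467), from the authors' deposited table. The median of these 12 genes was taken as a fixed value, so the adjusted p-values on that scale leave out its own error and are too small. Of 8 tested neuron markers 7 rose in SCLC, and of 9 tested in GSK, Map2 (1.44 ± 0.39) and Gap43 (1.45 ± 0.39) rose and Tubb3 (-2.76 ± 0.28) and Syn1 (-0.78 ± 0.28) fell, in the authors' deposited tables. Scaled to summed counts 3 rose and 1 fell in GSK, with Syn1 no longer called (-0.27, adjusted p = 0.475). Centring on abundant genes also ended the call of Syn1 (-0.53, adjusted p = 0.131), from the authors' deposited table. The lists overlap. The REST targets share Chga, Syp and Scg3 with the neuroendocrine markers, and Snap25, Syn1 and Stmn2 with the neuron markers. Calca and Gap43 are also on the list of genes bound by neuronal ELAVL proteins, given below.

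Genes of epithelial identity fell in SCLC together with the epithelial members. All 15 tested epithelial adhesion and keratin genes fell in the authors' deposited table, with a median of -3.36 against 0.10 for all genes. Cldn4 (-8.19), Krt19 (-7.39), Spint1 (-5.12) and Marveld3 (-4.72), genes of tight junctions, the cytoskeleton and surface protease control, had the largest falls in the authors' deposited table. Cdh1, which encodes E-cadherin, had -4.24 ± 1.29 (adjusted p = 0.0026) and Epcam, a surface adhesion molecule, had -2.72 ± 0.70 (adjusted p = 0.000312, from the authors' deposited table). In GSK 2 of 16 fell, Rab25 (-3.08 ± 1.02) and Cldn7 (-2.14 ± 0.87), and Krt19 (2.74 ± 0.92) and Ocln (1.29 ± 0.41) rose, in the authors' deposited table; Cdh1 had -1.54 ± 1.31 (adjusted p = 0.382) and Epcam -0.84 ± 0.70 (adjusted p = 0.369). Over all genes 15.5% fell and 21.6% rose in GSK, so the counts of this list were not above those shares. Scaled to summed counts, 7 of the 16 rose and 1 fell in GSK. Among 14 factors that activate or repress the epithelial program, 9 fell in SCLC in the authors' deposited table, Ehf (-3.48) among them. The falls also included factors listed as repressors of that program: Zeb2 (-6.49), Snai1 (-2.78), Twist1 (-2.35) and Snai2 (-1.91). Factors of both roles thus fell. The mesenchymal genes summed to 5099 in SCLC and 28304 in Normal, from the authors' deposited table, and the part of other cells in these falls was not tested. Grhl2, an activator of epithelial genes, had -4.06 ± 0.76, Ovol2, which opposes mesenchymal traits, had -3.50 ± 0.36, and Ovol1, its paralog, had -0.61 ± 0.97 (adjusted p = 0.622, from the authors' deposited table). Zeb1, a repressor of epithelial genes, rose by 4.59 ± 0.41 (adjusted p = 8.04e-28), as did Elf3 (0.99 ± 0.32), an epithelial ETS factor, in the authors' deposited table. In GSK Zeb2 (8.66 ± 0.72), Twist1 (6.35 ± 0.53), Snai1 (2.25 ± 0.71) and Grhl3 (1.48 ± 0.56) rose in the authors' deposited table. Grhl2 (-1.99 ± 0.82) and Elf3 (-1.91 ± 0.36) fell there, and 6 rose and 1 fell when scaled to summed counts. The immune markers summed to 24673 in GSK and 82.0 in SCLC, and the mesenchymal genes to 56643 in GSK and 5491 in SCLC, from the authors' deposited table. The part of other cells in these rises was not tested. Zeb1 had 0.27 ± 0.23 (adjusted p = 0.392), Ovol1 -1.99 ± 1.14 (adjusted p = 0.164) and Ovol2 -0.15 ± 0.62 (adjusted p = 0.879) in GSK in the authors' deposited table.

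The deposited values are per gene and hold no exon or isoform, so the targets of the members can be given by their total level only. Of 12 genes with exons known as ESRP targets, 7 fell and Enah (1.48 ± 0.29), Scrib (1.17 ± 0.22) and Exoc7 (0.67 ± 0.20) rose in SCLC, with a median of -1.21 against 0.10 for all genes, in the authors' deposited table. Fgfr2, a growth factor receptor with well-known ESRP-regulated exons, had -4.79 ± 0.25 in SCLC and -3.16 ± 0.39 (adjusted p = 1.19e-14) in GSK, in the authors' deposited tables. Cd44 fell in SCLC (-3.38 ± 0.78) and had a mean of 6746 in GSK and 149.8 in SCLC (5.49 ± 0.81, adjusted p = 2.57e-10), in the authors' deposited tables. Immune and mesenchymal cells also express Cd44, and their markers moved the same way between these groups; their part in the Cd44 values was not tested. In GSK Slk (1.04 ± 0.28) rose as well, and Enah (-1.24 ± 0.33), Scrib (-1.12 ± 0.24) and Mpzl1 (-0.99 ± 0.26) fell along with Fgfr2, in the authors' deposited table, while 5 rose and 2 fell when scaled to summed counts.

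Of 11 genes chosen as holding neural microexons, 4 rose in SCLC, where 25.3% of all genes rose. Among the 4 were Asap1 (3.02 ± 0.25), Itsn1 (0.99 ± 0.26) and Ap2a1 (0.76 ± 0.18), in the authors' deposited table. Rest, Dock9 (-2.39 ± 0.31) and Cpeb4 (-1.81 ± 0.27) fell, where 25.1% of all genes fell. The median of the list was 0.20 against 0.10 for all genes, in the authors' deposited table. In GSK Rest and Cpeb4 (0.95 ± 0.30) rose and Ap2a1 (-1.77 ± 0.23) and Apbb1 (-0.82 ± 0.32) fell in the authors' deposited table. These 2 rises and 2 falls of 11 lay near the shares over all genes, 21.6% and 15.5%. With summed counts 3 rose and 1 fell. Of 8 tested genes with NOVA-regulated exons, Dcc (7.79 ± 1.30), Dab1 (5.71 ± 0.59), Lrp8 (2.45 ± 0.43) and Gphn (0.68 ± 0.28) rose and Agrn (-3.82 ± 0.42) fell in SCLC, with a median of 2.55 (1.95 with genes under a mean of 1 set at their bound) against 0.10, in the authors' deposited table. Gphn was not called when centred on abundant genes (0.49, adjusted p = 0.134), which left 3 rises, from the authors' deposited table. Dab1 (-2.63 ± 0.36) and Dcc (-1.77 ± 0.74, adjusted p = 0.046) fell in GSK in the authors' deposited table, and 1 fell when scaled to summed counts. Of 10 genes whose RNA the neuronal ELAVL proteins bind, a list that includes Nova1, 7 rose in SCLC and Fas (at least 370-fold) and Ank3 (-3.14 ± 0.47) fell, with a median of 0.85 against 0.10, in the authors' deposited table. Calca (9.28 ± 1.09), Nova1, Mapt (5.83 ± 0.44) and Gap43 (5.41 ± 0.80), a growth cone protein whose mRNA HuD stabilizes, had the largest rises in the authors' deposited table. In GSK Fas (at least 386-fold), Ank3 (1.48 ± 0.48), Gap43 (1.45 ± 0.39) and Calca rose and Nova1 fell, of 9 tested with a median of 0.54 against 0.24, in the authors' deposited table, and 6 rose and 1 fell when scaled to summed counts.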

How the data were processed

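A stranded kit for mRNA gave paired reads of 150 bp, per the labels, which were aligned with STAR 2.7.9a to GRCm39, per the submitters' processing notes. Which tools counted and compared is not given in the sources used here, but, per the file headers, the columns carry the names DESeq2 uses. The authors deposited a mean signal of normalized counts over 6 libraries, a log2 fold change with its standard error, a score equal to their ratio, and p-values, unadjusted and adjusted. Per-library depth is therefore unknown, and counting error is contained in the standard errors. Adjusted p-values, recomputed by Benjamini-Hochberg adjustment, agreed within 0.0035 on the log10 scale.

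Group means were computed from the mean and fold change, with 3 libraries a group. The coefficient of variation was solved from the standard error under a negative binomial model with equal spread in both groups, where both means reached 10. Folds against a group under 3 normalized counts, a mean of 1, are lower bounds. Levels per kilobase use the union of exons in GENCODE M21 (GRCm38). Alternatives were recomputed with a normal test in Python 3.11.15 with SciPy 1.17.1, checked on simulated fold changes. Each shift in scale was taken as a fixed value without error. Named genes were the members, up to 4 genes per list with the largest called changes, all genes of a list where 5 or fewer changed one way, and 17 genes named in the plan; 2 genes that this rule names are not reported here. Members and the 15 other lists were chosen with earlier results of these data known, and no list was tested. Protein sequences were not used here.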

Additional observations from a re-analysis of the deposited data

How the results depend on the processing

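For SCLC against Normal, 8 members higher and 1 lower were called under each of the 6 alternatives except the test of an absolute log2 fold change above 1, where Srrm4 was no longer called (adjusted p = 0.154). For GSK against SCLC, where 8 members were called, 2 higher and 6 lower, a threshold of 0.01 left 5 calls, 0 of them higher, and the test above 1 left 2, Elavl2 and Esrp2, with 0 higher and 2 lower. Both counts are smaller by construction. Both centrings and the scaling to summed counts left 7 calls, 2 higher and 5 lower, without Srrm3. Elavl3, not called in GSK under any setting, turned from -0.45 to 0.056 when scaled to summed counts and to 0.19 when centred on neuroendocrine markers, an alternative chosen after seeing the data. Over all genes, the test above 1 gave 6340 calls instead of 12453 in SCLC against Normal and 3724 instead of 10533 in GSK against SCLC. No paired analysis was possible because no column holds a single library, and for the same reason leaving out each replicate and DESeq2 on counts were not run. Means under about 10 normalized counts, as for Elavl2 in GSK and for Srrm3 and the ELAVL genes in Normal, limit how exactly those folds are known.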
